A study of Mus musculus with 7 samples.

Results

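The vitamin D receptor gene Vdr and the genes for calcium uptake, sensing and export were examined in mouse intestinal crypt cells sorted for a Bmi1 reporter. The 9 genes were taken as a named list: Vdr, Rxra, Cyp24a1, Cyp27b1, Trpv6, S100g, Atp2b1, Casr and Slc30a10. All 9 symbols matched 1 row each among the 37310 Ensembl genes of the count table. The mice carried BmicreERT2, a Cre recombinase controlled by Bmi1, with Rosa26RFP, a red reporter, and this was true of every diet group. They ate a purified diet from weaning to an age of 3 months. NWD1 is a Western-style diet that is high in fat and low in calcium, vitamin D3 and methyl donors. NWD2 is the same diet with calcium and vitamin D3 raised, and AIN76A is the control diet. Strongly red cells with Epcam and without CD45 were sorted and sequenced in bulk, giving 2 NWD2, 3 NWD1 and 2 AIN76A libraries. The time between switching on the reporter and sorting is not given in the sources used here, so the red cells may include offspring of Bmi1 cells.

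Vitamin D acts after its active form binds the vitamin D receptor, which pairs with a retinoid X receptor and binds DNA near target genes. In the small intestine this is known for turning on transcellular calcium uptake. Calcium enters through the channel Trpv6, is carried across the cell by calbindin-D9k, the product of S100g, and leaves through the calcium pump Pmca1, the product of Atp2b1. Absorption and these genes are known to be raised when dietary calcium is low.

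Total counts were 71331627 and 77959407 in NWD2, 44260145, 65822352 and 14034315 in NWD1, and 58419160 and 39657707 in AIN76A, in the order of replicate number. NWD1 replicate 2 was the only female. NWD1 replicate 3 is the shallowest library, and it was indexed with the same i5 sequence as NWD2, while NWD1 replicates 1 and 2 had that of AIN76A. The TPM table has no column for NWD1 replicate 3 and 1 column headed as an NWD2 replicate 3 that fits no sample title, so the diet of that library is less certain. NWD2 replicate 2 lay furthest out on the first principal component, at 84.2. NWD1 replicate 1 lay at -48.2, and the remaining libraries lay from -14.5 to 1.44. Bmi1 itself was low, at 3.09 ± 0.76 CPM in NWD2 (SD, n = 2), 3.76 ± 1.57 CPM in NWD1 (SD, n = 3) and 3.07 ± 0.93 CPM in AIN76A (SD, n = 2). CPM are counts relative to the library total, scaled by TMM. Of the markers used in sorting, Epcam had 225 and 838 CPM in NWD2, averaged 1207 ± 119.8 CPM in NWD1 (SD, n = 3) and 748 ± 336 CPM in AIN76A (SD, n = 2), and Ptprc, which encodes CD45, did not average above 4.12 CPM in any diet. The labels do not say whether the libraries came from separate animals, so the p-values measure the spread between these libraries, which may be technical. In bulk RNA, fewer cells of a type and less RNA per cell cannot be told apart.

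The 250 bases before the transcription start are shown for Trpv6, S100g and Slc30a10, each of which had its highest mean CPM under NWD1, so that their start regions can be compared. They are RefSeq sequences of build GRCm38.p6, on which 8 of the 9 genes had an entry and Cyp24a1 had none. Capitals mark the hexamer AGGTCA on either strand, or its variants AGTTCA or GGGTCA or else GGTTCA, which are half-sites of the kind the receptor pair binds. Hexamers were allowed to overlap.
Trpv6, chr6:41636406-41636655, minus strand: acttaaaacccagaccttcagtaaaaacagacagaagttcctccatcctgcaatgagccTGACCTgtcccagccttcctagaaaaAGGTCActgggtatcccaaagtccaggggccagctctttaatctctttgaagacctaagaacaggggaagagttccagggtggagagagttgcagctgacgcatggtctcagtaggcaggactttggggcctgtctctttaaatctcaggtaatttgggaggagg
S100g, chrX:162964600-162964849, minus strand: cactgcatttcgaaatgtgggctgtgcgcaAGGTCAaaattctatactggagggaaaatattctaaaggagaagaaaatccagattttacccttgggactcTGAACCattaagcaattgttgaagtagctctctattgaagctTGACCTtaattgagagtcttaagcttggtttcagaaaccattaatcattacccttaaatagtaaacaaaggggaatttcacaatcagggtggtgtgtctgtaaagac
Slc30a10, chr1:185454598-185454847, plus strand: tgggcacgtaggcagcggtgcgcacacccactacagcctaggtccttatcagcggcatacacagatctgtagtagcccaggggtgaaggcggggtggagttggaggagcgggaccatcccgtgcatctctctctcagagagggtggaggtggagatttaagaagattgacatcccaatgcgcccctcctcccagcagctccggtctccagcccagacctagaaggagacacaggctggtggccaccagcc
The Trpv6 window held 2 half-sites, the S100g window held 3, and the Slc30a10 window held 0. Among the other listed genes, the Vdr window held 1, those at the Rxra starts held 0 and 3, and those of Cyp27b1 and Casr held 0. Half-sites were thus also present at listed genes whose highest mean CPM was not under NWD1. At least 1 half-site stood in 38.6% of 32851 RefSeq windows of that length, and 2 or more in 9.75%. Half-sites of the same direction with 3 bases between them are the arrangement of the known response element. They stood in 0.0396% of windows and in none of the 10 windows of the listed genes, which do not cover Cyp24a1. G and C made up 49.6% of the Trpv6 window, 38.4% of the S100g window and 60.8% of the Slc30a10 window. The windows at both Atp2b1 starts held 0 half-sites and were 78.4% and 80.8% G and C. A match is a description of letters only, and these windows do not cover more distant elements.

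Per transcript length, the genes differed widely in level. The median deposited TPM over 6 libraries was 361 for S100g, 175 for Vdr, 29.0 for Atp2b1, 14.2 for Rxra and 9.18 for Slc30a10. It was 0.0735 for Trpv6 and 0.0671 for Casr, and Cyp24a1 and Cyp27b1 had a median of 0. The range of S100g, 117 to 1654 TPM, overlapped that of Vdr, 112 to 207 TPM, so the order of those neighbours is not beyond their spread. Atp2b1 spanned 20.2 to 54.9 TPM and Rxra 11.5 to 16.1 TPM, which did not overlap. Slc30a10, at 4.53 to 30.6 TPM, overlapped Rxra and Atp2b1, and Trpv6 overlapped Casr.

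**Figure D1:**
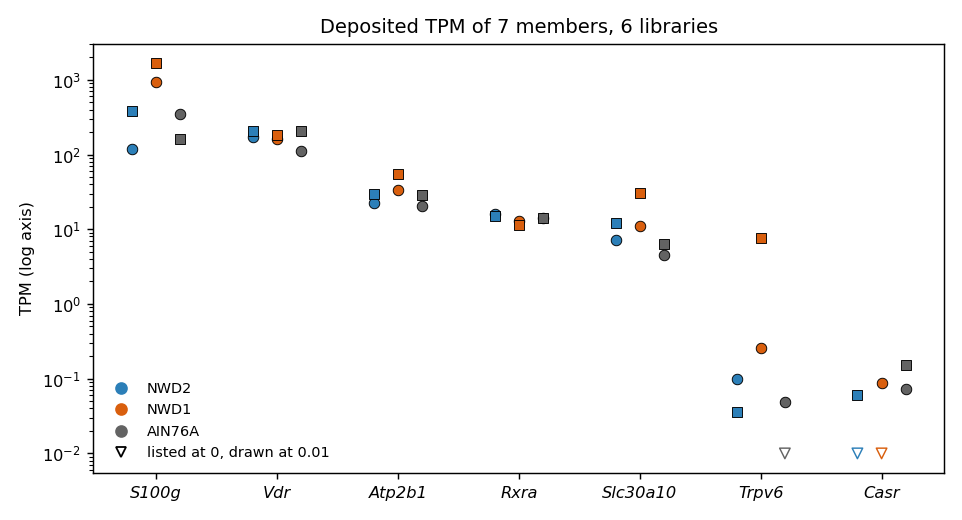
Deposited TPM (log axis) of 7 of the listed genes in 6 libraries, coloured by diet, with circles for replicate 1, squares for replicate 2 and open triangles for values listed at 0. S100g and Vdr lie highest, and Trpv6 passes 1 TPM in a single library, NWD1 replicate 2, at 7.69 TPM.

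Of the 9 genes, 7 passed the filter on low counts and were tested among 14626 genes. The filter asked for about 0.171 CPM in at least 2 libraries. Trpv6 passed it through the 3 NWD1 libraries alone, and Casr through 2 NWD1 and 2 AIN76A libraries, so their passing was tied to where they were high. With the edgeR quasi-likelihood test, 0 of the 7 passed an adjusted p under 0.05 in any comparison. Among all tested genes the share called was 0% in each of the 3 comparisons. Without adjustment, 560 genes (3.83%) had p under 0.05 for NWD2 against AIN76A, 500 (3.42%) for NWD1 against AIN76A and 1154 (7.89%) for NWD2 against NWD1. DESeq2 called 51, 1 and 192 genes in the same order, and none of the 7 was among them.

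**Figure D2:**
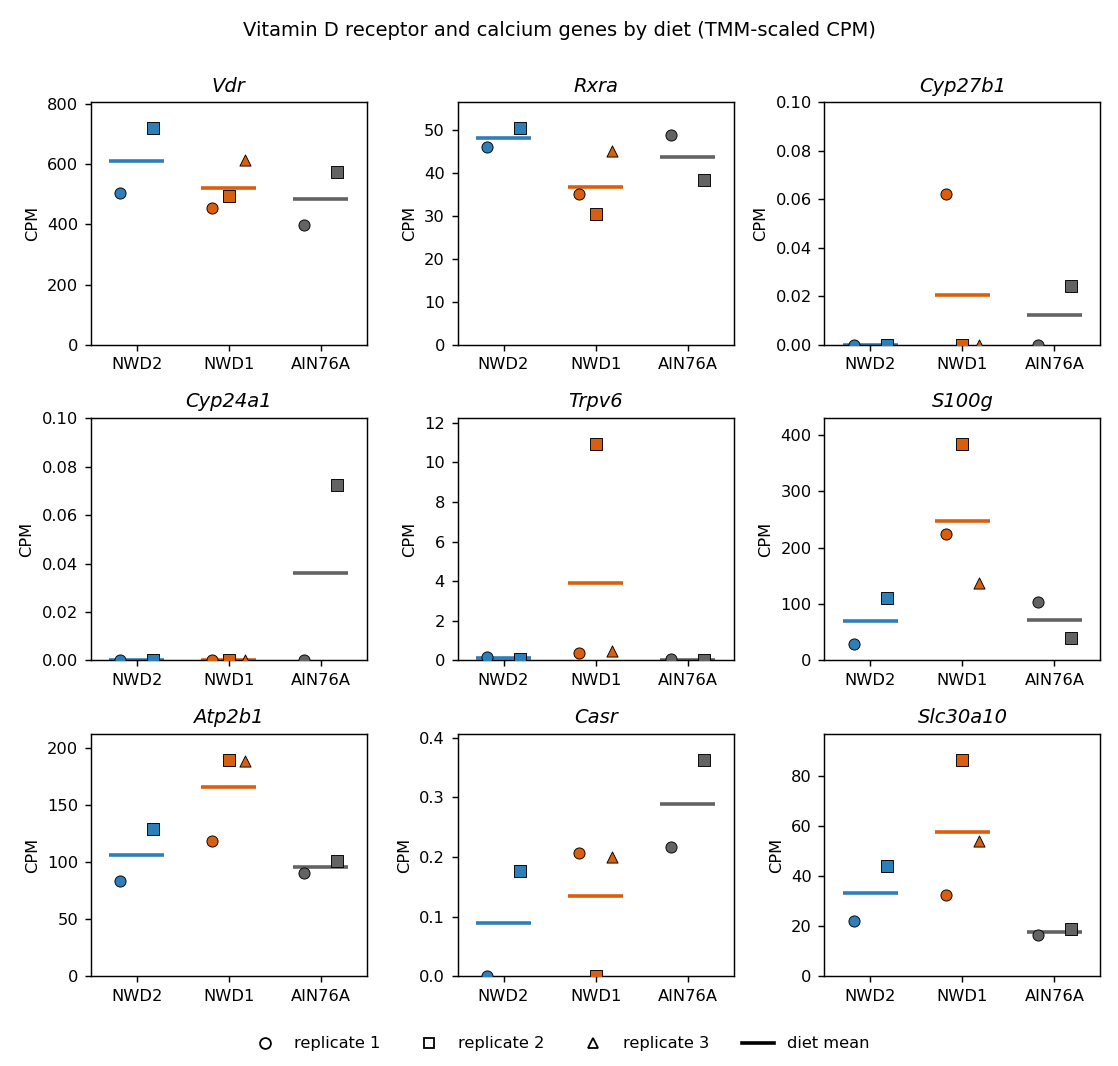
TMM-scaled CPM of the 9 genes in each library by diet, on linear axes that start at 0, with replicate numbers by symbol and diet means as bars. Trpv6, S100g, Atp2b1 and Slc30a10 are higher in the 3 NWD1 libraries than in the 2 AIN76A libraries, with Trpv6 dominated by NWD1 replicate 2 at 10.9 CPM.

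Vdr, which encodes the receptor, was abundant under every diet and its values overlapped between diets. It had 503.5 and 719.6 CPM in NWD2, 456, 493 and 613 CPM in NWD1, with 397 and 573 CPM in AIN76A. Its highest library was 1.81 times its lowest. The log2 fold change was 0.10 (SE 0.31) for NWD1 against AIN76A, with a 95% interval from -0.59 to 0.79. It was 0.34 (SE 0.33) for NWD2 against AIN76A, with an interval from -0.42 to 1.09. For NWD2 against NWD1 it was 0.23 (SE 0.30), with an interval from -0.45 to 0.92. A change of 1 on the log2 scale in Vdr therefore lay outside the intervals of the comparisons with NWD1 and inside that of NWD2 against AIN76A.

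Rxra, which encodes a partner receptor, had a highest library 1.66 times its lowest, where that ratio was 13 for S100g and 5.22 for Slc30a10. It had 46.1 and 50.4 CPM in NWD2, 35.2, 30.4 and 45.0 CPM in NWD1, with 48.9 and 38.4 CPM in AIN76A. Both NWD2 libraries lay above all NWD1 libraries, though by little, and both groups overlapped AIN76A. The log2 fold change was 0.39 (SE 0.26) for NWD2 against NWD1, with an edgeR adjusted p of 0.743. It was -0.25 (SE 0.26) for NWD1 against AIN76A and 0.14 (SE 0.29) for NWD2 against AIN76A.

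The enzymes that make and destroy the active hormone were at the limit of detection. Cyp27b1, the 1-alpha-hydroxylase that makes active vitamin D chiefly in the kidney, had 3 counts in NWD1 replicate 1 and 1 count in AIN76A replicate 2. It had 0 in the other 5 libraries. Cyp24a1, which breaks active vitamin D down and is a classic target of the receptor, had 3 counts in AIN76A replicate 2 and 0 in the other 6 libraries, both NWD2 libraries included. A count of 0 allows up to 3 counts, or 0.0412 and 0.0483 CPM in NWD2, 0.0621, 0.0432 and 0.199 CPM in NWD1, and 0.054 CPM in AIN76A replicate 1. Those limits cover counting error only, and a difference between diets in either gene was not detectable at this depth.

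The calcium uptake genes had their highest values under NWD1, though none passed the adjusted threshold. Trpv6, the apical calcium channel, had 0.151 and 0.0644 CPM in NWD2, 0.372, 10.9 and 0.465 CPM in NWD1, with 0.0900 and 0 CPM in AIN76A. The counts behind these were 11 and 4 in NWD2, 18, 759 and 7 in NWD1, and 5 and 0 in AIN76A. Every NWD1 library was above every other library, but the size of the difference came from NWD1 replicate 2. For NWD1 against AIN76A the log2 fold change was 6.27 (SE 1.84), with an edgeR unadjusted p of 0.0074 and adjusted p of 0.878. It was 3.00 without NWD1 replicate 2. Against NWD1, NWD2 had a log2 fold change of -5.17 (SE 1.65), with an edgeR unadjusted p of 0.0116 and adjusted p of 0.532, and of -1.89 without that library. DESeq2 gave no p for Trpv6.

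S100g, the cytosolic calcium carrier calbindin-D9k, had the highest median TPM of the uptake genes. Its level was 29.5 and 111 CPM in NWD2, 225, 384 and 137 CPM in NWD1, with 104 and 39.2 CPM in AIN76A. The NWD1 libraries did not overlap those of either other diet, while NWD2 and AIN76A overlapped each other. NWD1 against AIN76A gave a log2 fold change of 1.80 (SE 0.67), with an edgeR unadjusted p of 0.0238 and adjusted p of 0.878. It was -1.82 (SE 0.67) for NWD2 against NWD1, with an edgeR unadjusted p of 0.0226 and adjusted p of 0.548. NWD2 and AIN76A differed by -0.02 (SE 0.68), with a 95% interval from -1.56 to 1.52, which leaves room for changes of more than 1 in either direction. Without AIN76A replicate 1 the change for NWD1 was 2.66, and without AIN76A replicate 2 it was 1.26. Without NWD2 replicate 2 the change for NWD2 against NWD1 was -3.07, and without NWD2 replicate 1 it was -1.20.

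Atp2b1, the basolateral calcium pump, had a narrower range, its highest library being 2.28 times its lowest. It had 83.2 and 129 CPM in NWD2, 118, 189.6 and 189 CPM in NWD1, with 90.2 and 101 CPM in AIN76A. The 3 NWD1 libraries were above both AIN76A libraries, and NWD2 replicate 2 was above NWD1 replicate 1. The log2 fold change was 0.79 (SE 0.32) for NWD1 against AIN76A, with an edgeR unadjusted p of 0.0337 and adjusted p of 0.878. It was -0.64 (SE 0.31) for NWD2 against NWD1 and 0.15 (SE 0.34) for NWD2 against AIN76A, with edgeR adjusted p of 0.672 and 0.996.

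Slc30a10, a cell-surface manganese exporter that has been reported as a vitamin D target in human intestinal cells, also had its highest mean under NWD1. It had 22.1 and 44.1 CPM in NWD2, 32.5, 86.3 and 53.8 CPM in NWD1, with 16.5 and 18.7 CPM in AIN76A. Both NWD2 libraries and all NWD1 libraries lay above the AIN76A libraries, and NWD2 overlapped NWD1. The log2 fold change was 1.71 (SE 0.45) for NWD1 against AIN76A, with a 95% interval from 0.69 to 2.73. Its edgeR unadjusted p was 0.00425 and ranked 11 of 14626 genes, and the adjusted p was 0.878. It was 0.91 (SE 0.47) for NWD2 against AIN76A and -0.80 (SE 0.44) for NWD2 against NWD1, with edgeR adjusted p of 0.996 and 0.698. Without NWD2 replicate 2 these values were 0.33 and -1.37, and without NWD1 replicate 2 the value for NWD2 against NWD1 was -0.38.

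Casr, the receptor that senses calcium outside the cell, was near the limit of detection. It had 0 and 11 counts in NWD2, 10, 0 and 3 in NWD1, and 12 and 15 in AIN76A. The highest level was 0.363 CPM, in AIN76A replicate 2. Its log2 fold change was -1.24 (SE 1.44) for NWD1 against AIN76A, and the interval from -4.49 to 2.002 covers large changes in both directions.

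**Figure D3:**
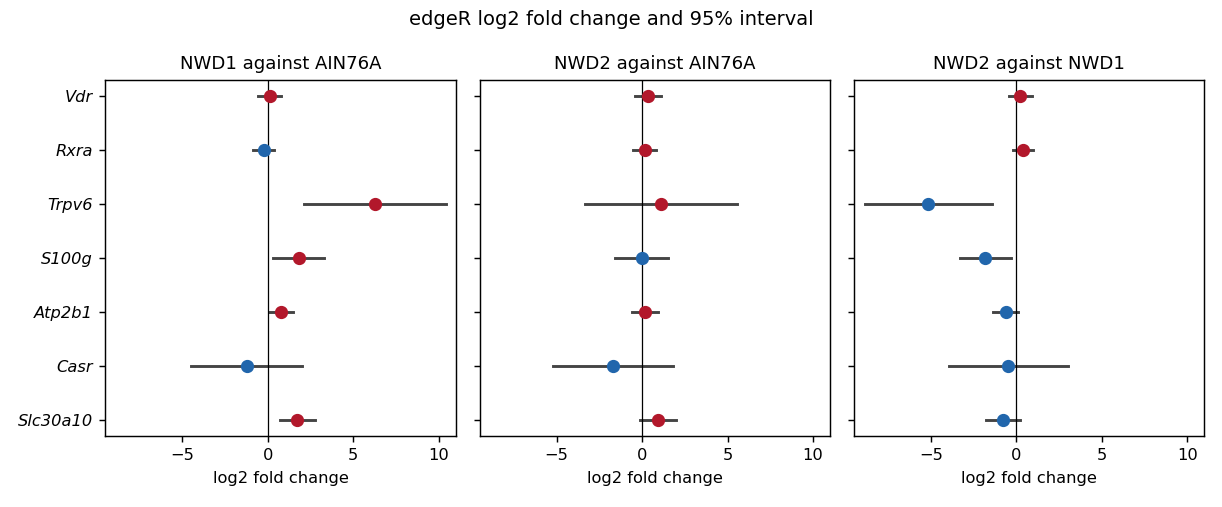
Fitted log2 fold changes (points, red above 0 and blue below) with 95% intervals (lines) for the 7 tested genes in the 3 comparisons. The intervals of Trpv6, S100g, Atp2b1 and Slc30a10 lie above 0 for NWD1 against AIN76A, before adjustment over all genes. Those of Trpv6 and S100g lie below 0 for NWD2 against NWD1, again before adjustment. Trpv6 passed the filter on low counts through the NWD1 libraries alone.

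Set side by side, S100g, Atp2b1 and Slc30a10, which were over the filter's limit in all 7 libraries, had unadjusted p under 0.05 and no overlap for NWD1 against AIN76A, all higher. Trpv6 is left out of this comparison with all genes, since it was tested only because it was high in NWD1. Over all tested genes, 2.52% had an unadjusted p under 0.05 in that direction, and 11.4% did not overlap in that direction. The listed genes were chosen with earlier results of these data known, so these shares do not test them. Casr did not overlap as lower, with at most 0.207 CPM in NWD1 and at least 0.216 CPM in AIN76A. In the lower direction the shares were 0.896% and 8.61%, and without regard to direction 20.1% of genes did not overlap. For NWD2 against NWD1, S100g was lower at that unadjusted threshold and did not overlap, and Rxra did not overlap in the other direction. Among all genes, 6.75% were lower and 1.14% higher at that threshold, and 14.5% did not overlap as lower, 10.8% as higher and 25.3% in either direction. For NWD2 against AIN76A, no listed gene reached an unadjusted p of 0.05. Slc30a10 did not overlap as higher, where 13.2% of genes did the same. Casr did not overlap as lower, where the share of all genes was also 13.2%. No NWD2 library was over the filter's limit for Casr, so its being tested was tied to the diets where it was higher. Of all genes, 1.18% were higher and 2.65% lower at an unadjusted p under 0.05 for NWD2 against AIN76A, and 26.4% did not overlap in either direction. The first and second of these comparisons share the NWD1 libraries, so their opposite signs are not separate evidence. With Trpv6 counted in, the number with unadjusted p under 0.05 for NWD1 against AIN76A was 4, and lay between 1, without AIN76A replicate 2, and 4 when 1 library was left out. Without NWD1 replicate 2 it was 2. For NWD2 against NWD1 it was 2, and was 0 without NWD1 replicate 2 and 4 without NWD1 replicate 1. Because these numbers include Trpv6, which was tested only through NWD1, they are not set against the shares of all genes.

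**Figure D4:**
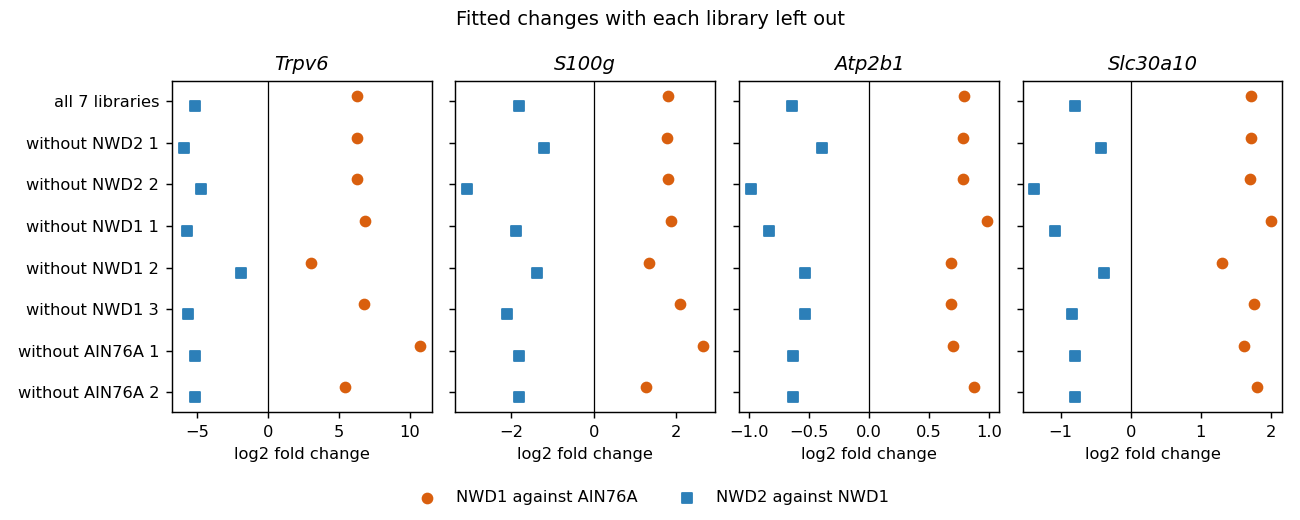
Fitted log2 fold changes of Trpv6, S100g, Atp2b1 and Slc30a10 with all 7 libraries and with each library left out, for NWD1 against AIN76A (circles) and NWD2 against NWD1 (squares). Every circle lies above 0 and every square below 0, while Trpv6 shrinks to 3.00 and -1.89 without NWD1 replicate 2.

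Without NWD1 replicate 3, whose diet is less certain, the log2 fold changes for NWD1 against AIN76A were 6.78 for Trpv6, 2.09 for S100g, 0.68 for Atp2b1 and 1.75 for Slc30a10. Without NWD2 replicate 2, which lay furthest out, those for NWD2 against NWD1 were -4.70, -3.07, -0.98 and -1.37 in that order of genes. Without NWD2 replicate 1 they were -5.95 for Trpv6, -1.20 for S100g and -0.39 for Atp2b1.

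The i5 index and the sex of the mice are tied to diet. Within the index shared with AIN76A, the NWD1 libraries were replicates 1 and 2, and Slc30a10 had 32.5 and 86.3 CPM there against 16.5 and 18.7 CPM in AIN76A. Within the other index, NWD2 had 29.5 and 111 CPM of S100g where NWD1 replicate 3 had 137, and 22.1 and 44.1 CPM of Slc30a10 where NWD1 replicate 3 had 53.8. With an i5 term the log2 fold changes for NWD1 against AIN76A were 6.77 for Trpv6, 2.09 for S100g, 0.68 for Atp2b1 and 1.75 for Slc30a10. These rest on the same libraries as the fit without NWD1 replicate 3, so they are not a separate check. For NWD2 against NWD1 that term gave -2.07, -0.96, -0.83 and -0.70 in the same order, resting on NWD1 replicate 3 as the bridge. NWD1 replicate 2, the female, had the highest value of all 7 libraries in each of these 4 genes, and S100g lies on the X chromosome. Whether sex had a part in that was not tested, since no other library was female.

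Markers of other cell types were read beside these genes. For NWD1 against AIN76A, 50.6% of all tested genes had a positive log2 fold change. Absorptive enterocyte markers had positive log2 fold changes for NWD1 against AIN76A in 9 of 12 members, and none of the markers was at 0. Their summed level was 46044 and 89122 CPM in NWD2, 46486, 60213 and 42531 CPM in NWD1, with 42428 and 48065 CPM in AIN76A. Proximal small intestine markers had positive values in 7 of 8, again none at 0, and summed to 7096 and 18514 CPM in NWD2, 13030.2, 14525 and 7999 CPM in NWD1, with 9397 and 11073 CPM in AIN76A. NWD2 replicate 2 had the highest sums of both lists. Fabp1 and Lct are in both lists, and Fabp1 had the largest share of the proximal sum in every library. Paneth cell markers had negative values for NWD1 against AIN76A in 8 of 8 members, and goblet cell markers in 8 of 8, also with none at 0. In each of these lists 4 were lower at an unadjusted p under 0.05, a share that was 0.896% over all genes. In the Paneth list these were Defa17, Defa24, Itln1 and Guca2a, not all of which are particular to Paneth cells. Lyz1, Mmp7, Ang4 and Pla2g2a were lower without reaching that threshold. Paneth markers summed to 11641 to 22102 CPM in NWD2, 15021 to 20539 CPM in NWD1 and 27939 to 41660.0 CPM in AIN76A. Goblet markers summed to 7914 and 9701 CPM in NWD2, 5294, 7572 and 8227 CPM in NWD1, with 19019 and 8848 CPM in AIN76A. AIN76A replicate 1 was thus far above all other libraries, and AIN76A replicate 2 was near the highest NWD1 library. Leukocyte markers were scarce, and 8 of the 8 tested of 10 had positive values for NWD1 against AIN76A. Of these, Cd8a and Laptm5 were higher at an unadjusted p under 0.05, as were 2.52% of all genes. In AIN76A they reached at most 0.0725 and 0.121 CPM, under the filter's limit of about 0.171 CPM. They were thus tested only through NWD1 and NWD2 libraries, where they were high, so that share is no measure for them. Leukocyte markers summed to 15.5 and 31.4 CPM in NWD2, 18.4, 17.6 and 36.8 CPM in NWD1, with 14.6 and 19.1 CPM in AIN76A. In a library, 0 to 2 of the leukocyte markers were at 0, and Itgam had the largest share of their sum in every library. The part of enterocytes, Paneth cells, goblet cells or leukocytes in the results was not tested.

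Enteroendocrine and tuft cell markers had lower sums in both NWD2 libraries than in any NWD1 library, as S100g and Trpv6 did in level. For NWD2 against NWD1, 12 of 12 enteroendocrine markers were lower at an unadjusted p under 0.05, with a median log2 fold change of -1.70. Tuft markers were lower in 10 of 10, 9 of them at that threshold, with a median of -1.71, against 6.75% of all genes at that threshold and an all-gene median of 0.05. Enteroendocrine markers summed to 465 and 662 CPM in NWD2, 1852, 2003 and 1712 CPM in NWD1, with 1828 and 2268 CPM in AIN76A. Tuft markers summed to 84.1 and 112 CPM in NWD2, 445, 157.5 and 251 CPM in NWD1, with 372 and 209.5 CPM in AIN76A, and no marker of either list was at 0. By the edgeR adjusted p, 0 markers of either list were called. For NWD1 against AIN76A, 0 markers of either list had an unadjusted p under 0.05. The part of enteroendocrine and tuft cells in the results was not tested.

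Other genes of vitamin D and calcium handling were read from 7 lists of 83 genes, of which 70 were tested. The edgeR test called 0 of them in each comparison. At an unadjusted p under 0.05, 3 were higher and 0 lower for NWD1 against AIN76A, 3 higher and 1 lower for NWD2 against AIN76A, and 3 higher and 8 lower for NWD2 against NWD1. These are 4.29%, 5.71% and 15.7% of the 70, against 3.42%, 3.83% and 7.89% of all tested genes. Their median log2 fold change was 0.10, 0.10 and 0.12 in that order, against 0.01, -0.03 and 0.05 over all tested genes. The 7 lists were chosen with earlier results of these data known, so these values beside all genes are not a test.

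The list of genes that activate, clear or carry vitamin D also holds Dhcr7, an enzyme of cholesterol synthesis. The tested genes of that list all had positive values for NWD2 against AIN76A, though none passed the adjusted threshold. Cyp3a11 and Cyp3a13, cytochrome P450 enzymes of drug and steroid clearance, drew the most counts in that list. Cyp3a11 had 834 and 1421 CPM in NWD2, 399.7, 1012 and 889 CPM in NWD1, with 319.5 and 392 CPM in AIN76A. NWD2 and NWD1 both lay above AIN76A and overlapped each other. The log2 fold change was 1.66 (SE 0.47) for NWD2 against AIN76A and 1.11 (SE 0.44) for NWD1 against AIN76A, with edgeR adjusted p of 0.955 and 0.878. Near-identical Cyp3a copies can share reads, which makes each copy's count uncertain. Cyp3a13 had a log2 fold change of 0.78 (SE 0.33) for NWD2 against NWD1, with an edgeR adjusted p of 0.607. All 6 tested members of this list had positive values for NWD2 against AIN76A, with a median of 1.08. Over all tested genes 47.4% had positive values there.

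Among 10 tested receptor partners and cofactors, none had an unadjusted p under 0.05 in any comparison. Ncor1, a corepressor, and Smarca4, a chromatin remodeller, drew the most counts. Ncor1 had a log2 fold change of 0.52 (SE 0.28) for NWD1 against AIN76A, Ncoa2, a coactivator, had 0.71 for NWD2 against AIN76A, and Rxrb, another partner receptor, had -0.65 (SE 0.35) for NWD2 against NWD1. Of 13 tested targets, Cdh1, encoding E-cadherin, drew the most counts beside Cyp3a11. Slc37a2, a sugar phosphate transporter, had 9.70 and 14.1 CPM in NWD2, 15.5, 17.0 and 39.4 CPM in NWD1, with 14.04 and 11.7 CPM in AIN76A, and was the target of smallest p for NWD2 against NWD1, at -1.002 (SE 0.44). Abcb1a, a drug efflux pump, averaged 109 ± 82.6 CPM in NWD2 (SD, n = 2), 99.9 ± 33.2 CPM in NWD1 (SD, n = 3) and 90.9 ± 51.0 CPM in AIN76A (SD, n = 2). Slc34a2, the intestinal phosphate transporter, averaged 218 ± 149 CPM in NWD2 (SD, n = 2), 91.9 ± 39.4 CPM in NWD1 (SD, n = 3) and 103 ± 89.5 CPM in AIN76A (SD, n = 2), so its groups overlapped.

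Of 10 tested other genes of calcium passage at the plasma membrane, 1 had a positive value for NWD1 against AIN76A. Over all tested genes 50.6% had one, and 0 of the 10 had an unadjusted p under 0.05 there. Trpv5, the kidney calcium channel, had 0 counts in all 7 libraries, and Calb1, the calbindin of the kidney, did not exceed 0.0687 CPM. Cldn15, a tight junction protein of ion passage, averaged 1232 ± 62.2 CPM in NWD2 (SD, n = 2), 961 ± 33.0 CPM in NWD1 (SD, n = 3) and 1162 ± 312 CPM in AIN76A (SD, n = 2). Cldn2, which forms a paracellular cation pore, averaged 98.4 ± 6.42 CPM in NWD2 (SD, n = 2), 99.9 ± 25.6 CPM in NWD1 (SD, n = 3) and 142 ± 1.91 CPM in AIN76A (SD, n = 2). Its log2 fold change was -0.53 (SE 0.30) for NWD2 against AIN76A and -0.51 (SE 0.27) for NWD1 against AIN76A, with edgeR adjusted p of 0.996 and 0.878. Slc8a3, a sodium-calcium exchanger, had 1.499 (SE 0.64) for NWD2 against NWD1.

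Among the 15 genes of intracellular calcium stores, 4 had an unadjusted p under 0.05 for NWD2 against NWD1, all lower, where 6.75% of all tested genes were lower at that threshold. Micu2, a regulator of mitochondrial calcium uptake, had 40.3 and 23.2 CPM in NWD2, 75.8, 55.7 and 78.5 CPM in NWD1, with 33.8 and 53.7 CPM in AIN76A. Its log2 fold change was -1.14 (SE 0.34), with an edgeR adjusted p of 0.518. Mcu, the pore of that uptake, had -0.99 (SE 0.37). Stim2, the sensor of calcium in the endoplasmic reticulum, had 0.73 (SE 0.30) for NWD1 against AIN76A, and Atp2c2, a secretory pathway pump, had -0.68 for NWD2 against AIN76A. Of the calcium sensing list, Gna11 and Gnaq, G protein subunits to which Casr can couple, were the only tested members, and Gna11 had 0.27 for NWD1 against AIN76A and -0.31 for NWD2 against NWD1. Gnaq had -0.14 for NWD2 against AIN76A.

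Slc30a10 was also set beside 15 genes of zinc and manganese transport. Slc39a4 and Slc39a5, zinc importers, drew the most counts. Slc39a4 averaged 733 ± 256 CPM in NWD2 (SD, n = 2), 527 ± 169 CPM in NWD1 (SD, n = 3) and 563 ± 48.2 CPM in AIN76A (SD, n = 2). Slc30a9, a zinc transporter of the same family as Slc30a10, had 16.8 and 9.11 CPM in NWD2, 30.8, 39.5 and 28.7 CPM in NWD1, with 14.5 and 21.4 CPM in AIN76A. Its log2 fold change was 0.88 (SE 0.35) for NWD1 against AIN76A and -1.35 (SE 0.35) for NWD2 against NWD1, with edgeR adjusted p of 0.878 and 0.492. Mt2, a metallothionein that binds zinc, had -1.86 (SE 0.69) for NWD2 against AIN76A.

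The genes whose log2 CPM followed each listed gene most closely over the 7 libraries were sought among 9636 genes (9637 for Trpv6). For Slc30a10 they were Ahcyl1, Zc3h7a and Jak2, with Pearson r from 0.979 to 0.988. Ahcyl1 had 129 and 165 CPM in NWD2, 137, 204 and 165 CPM in NWD1, with 106 and 112 CPM in AIN76A. For Vdr they were Card6, Lig3 and Nup205 (r from 0.994 to 0.998), for S100g Ank, Cep290 and Hddc3 (0.943 to 0.961), and for Trpv6 Fam63b, Luc7l2 and Vamp1 (0.990 to 0.991). With 7 libraries and so many genes searched, values this high describe the search and carry no test.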

How the data were processed

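Per the labels' protocols, cDNA came from SMART-Seq v4 and sequencing libraries from Nextera XT, a combination without strand. The authors deposited raw counts for each Ensembl gene. The submitters' processing notes name STAR 2.4.2a, HTSeq 0.6.1, edgeR and mm9, without roles; the annotation is not given in the sources used here. The deposited TPM values served for levels between genes and as an alternative; 1 TPM column matched no sample and was not used.

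The edgeR 4.0.16 quasi-likelihood test was run in R 4.3.3 with TMM, filterByExpr and robust fitting on all 7 libraries with diet as the only term, leaving 4 residual degrees of freedom; p-values were adjusted over all 14626 tested genes. SEs and 95% intervals come from the same fit. An exact permutation test cannot go below p = 0.333 with 2 against 2 libraries or 0.1 with 3 against 2, so none was used. Alternatives were DESeq2 1.42.0, limma 3.58.1 on log2(TPM + 1) or log2(TPM + 0.1), other scaling, no filter, terms for replicate number, sex or i5 index, and each library left out. The count of listed genes at unadjusted p under 0.05 under each alternative was added after seeing the data. Counts were simulated for NWD1 against AIN76A over 14626 genes, and only genes of higher mean count were altered. The test recovered 2.99% of the genes altered by 1 on the log2 scale, 62.7% of those altered by 2 and 97% of those altered by 3. These shares do not cover genes as low as Casr.

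The 9 genes and the 7 lists were chosen with earlier results of these data known. From each list the text names the 2 genes of highest mean CPM, the gene of smallest p in each comparison, and a fixed set. Some genes that this rule names are not reported here. All 194 listed symbols matched, 4 by a newer symbol. Coordinates are those of the RefSeq windows in GRCm38.p6, not of mm9.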

Additional observations from a re-analysis of the deposited data

How the results depend on the processing

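The fits without a filter on low counts called 85 genes for NWD1 against AIN76A, 190 for NWD2 against AIN76A and 384 for NWD2 against NWD1, against 0 each with the filter. They included Trpv6, S100g and Slc30a10 in the first comparison (edgeR adjusted p of 8.13e-13, 0.000423 and 0.00131) and Trpv6 and S100g in the last. In that fit 24.5% of genes had a mean count under 1, against 0% with the filter, and the median prior degrees of freedom were infinite, against 5.29. DESeq2 called 1, 51 and 192 genes in the same order, and limma on log2(TPM + 1) called 1 for each comparison with NWD1. An i5 term called 1 for NWD2 against AIN76A and 2 for NWD2 against NWD1. Without single libraries the counts were 0 for both AIN76A comparisons and 0 to 1 for NWD2 against NWD1.

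The replicate block called 1 gene for NWD2 against AIN76A and 0 in the other comparisons. Deviations from the diet mean in same-numbered libraries had r from 0 to 0.261 over 6 pairs. In a diet with 2 libraries the deviations mirror each other, so these pairs are not independent. Differently numbered libraries were not compared, so whether the numbers pair the libraries was not tested. The block turned Vdr for NWD1 against AIN76A to -0.0035.

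With an i5 term, Vdr was -0.0311 for NWD1 against AIN76A, -0.0351 for NWD2 against AIN76A and -0.004 for NWD2 against NWD1. For NWD2 against AIN76A that term also turned Rxra to -0.31, S100g to 1.13 and Atp2b1 to -0.14, and without the filter S100g was 0.0103. When 1 library was left out, values ranged over 0 for Vdr (-0.14 to 0.39 for NWD1 against AIN76A, -0.0397 to 0.43 for NWD2 against NWD1) and Casr (-5.66 to 0.60 for NWD2 against NWD1). For NWD2 against AIN76A they did so for Rxra (-0.0119 to 0.33), S100g (-1.27 to 0.85) and Atp2b1 (-0.20 to 0.39). The cause of these reversals was not tested. Trpv6, S100g, Atp2b1 and Slc30a10 kept their sign for NWD1 against AIN76A and NWD2 against NWD1 under every alternative that gave a value. The filter on low TPM removed Trpv6 and Casr, so the TPM alternatives give them no value.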
